A study of Mus musculus with 12 samples.

Results

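Fgf2, its antisense RNA Fgf2os and 8 feedback genes of the ERK pathway (Spry1, Spry2, Spry4, Spred1, Dusp4, Dusp6, Etv4 and Etv5) were followed in mouse retina to ask whether the transcriptional output of FGF signaling moved with the ligand. They are 10 of the 50559 genes in the count table, and all 10 passed the filter on low counts in each comparison. Fgf2 was selected on its measured levels in these libraries, which were higher in APB5 than in IgG retinas and lower again with minocycline. Fgf2os was taken for its position at the same locus, with its levels already known. The values of both genes in those comparisons are therefore a description and carry no test. The 8 feedback genes were listed for their place in the pathway, although earlier results of these data were known when the list was made.

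RNA was measured in 12 retinal libraries from WT C57BL6/J mice at P28, 3 per group, and no group carried a transgene or a deletion. At P1, pups received 30 µg of either IgG isotype control or APB5, a rat monoclonal antibody that blocks PDGFRβ, the receptor by which pericytes are recruited to growing vessels. The groups IgG+Mino and APB5+Mino also received 45 mg/kg of minocycline, a tetracycline antibiotic, each day from P5 to P27. The antibody was given to the whole pup, so its effect was not confined to the retina, and each group is described in the study's text as 3 mice. The labels do not tie libraries to mice, so each library was taken as 1 sample.

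FGF2 is a growth factor without a classical signal peptide that binds FGF receptors together with heparan sulfate proteoglycans and drives the RAS, RAF, MEK and ERK cascade. Active ERK induces its own brakes, among them Sprouty and Spred proteins, which act upstream on RAS and RAF, and the dual-specificity phosphatases DUSP4 and DUSP6, which dephosphorylate ERK. It also induces the ETS transcription factors ETV4 and ETV5, so the transcripts of these genes are widely used as a readout of FGF and ERK activity. In the retina, FGF2 has long been studied as a survival factor for photoreceptors whose expression can rise after injury.

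Fgf2 lies on chromosome 3 of GRCm39 (37402473 to 37464257, plus strand). Fgf2os is a long noncoding RNA of 4 exons on the minus strand (37389481 to 37403889). The bodies of both genes overlap over 1417 bases but share 0 exon bases, because the first exon of Fgf2os (37403798 to 37403889) lies in the first intron of Fgf2, between the exons that end at 37403173 and begin at 37450334. Reads over this exon come from opposite strands. The libraries were stranded, but no source used here says if genes were counted by strand, so the Fgf2os counts may hold intronic Fgf2 reads over that exon. The sequence just before each start is shown because transcription of the pair begins so close together. Both sequences are given 5′ to 3′ on the strand of their gene, the first up to the base before the annotated Fgf2 gene and the second within Fgf2 intron 1.
Fgf2, chr3:37402245-37402472 (plus strand, GRCm39): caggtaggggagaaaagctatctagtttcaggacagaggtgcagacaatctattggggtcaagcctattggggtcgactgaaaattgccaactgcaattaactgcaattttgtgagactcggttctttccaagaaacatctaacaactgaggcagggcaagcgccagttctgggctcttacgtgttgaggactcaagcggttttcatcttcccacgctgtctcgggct
Fgf2os, chr3:37403890-37404139 (minus strand, GRCm39): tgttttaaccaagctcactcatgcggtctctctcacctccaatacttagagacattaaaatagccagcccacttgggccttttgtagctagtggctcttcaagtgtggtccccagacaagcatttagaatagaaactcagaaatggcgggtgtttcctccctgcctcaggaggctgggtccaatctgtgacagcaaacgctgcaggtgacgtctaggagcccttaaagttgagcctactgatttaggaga
No letters are in capitals because neither sequence held any motif searched. These were the ETS motifs CCGGAAG and CAGGAAG, the AP-1 motif TGANTCA, the cAMP response element (CRE) TGACGTCA and the CArG box bound by SRF, on both strands of the 250 bases before the start. Of the 9 genes searched (Spry4 was not), 0 held an ETS motif and 1, Etv5, held an AP-1 motif, from −233 to −227. Either ETS motif was found before 16.1% of 21757 annotated starts and the AP-1 motif before 6.2%. The CRE was found before 1.7% and the CArG box before 1.4%. No match says only that these letters are absent from this window.

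Total counts ranged from 52740545 to 59411044 per library. On the first principal component (38.5% of the variance), APB5 replicate 3 had a score of 127 and the other 11 libraries −53.8 to 25.6. Its summed rod photoreceptor markers were 14238 CPM (counts scaled to a common library size by TMM) against 52450.5 to 80037 CPM in the others. Its gliosis markers, led by Gfap, were 4648 CPM against 186 to 440.1 CPM. All 3 IgG libraries were high in Xist, as were APB5 replicate 3 and APB5+Mino replicate 3, and the other 7 libraries were low, so the groups differ in sex. Without APB5 replicate 3, an effect of APB5 against IgG and an effect of sex cannot be told apart. Pdgfrb, which encodes the receptor that APB5 binds, ranged from 12.9 to 20.1 CPM in IgG libraries and was 15.4, 16.3 and 38.7 CPM in those of APB5. In whole retina, fewer cells of a type and less RNA per cell cannot be told apart.

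Fgf2 was higher in each APB5 library than in any other library. It had 25.0, 30.0 and 21.7 CPM in the 3 IgG libraries and 26.0, 30.1 and 27.8 CPM in IgG+Mino. In APB5 it had 78.8, 105 and 155 CPM, and in APB5+Mino 27.5, 37.6 and 32.8 CPM. The 3 APB5 libraries lay above all 9 others with a wide gap, while IgG, IgG+Mino and APB5+Mino overlapped. The group means were 25.6 ± 4.16 CPM in IgG, 27.96 ± 2.03 in IgG+Mino, 113 ± 39.01 in APB5 and 32.6 ± 5.08 in APB5+Mino (SD, n = 3). On the log2 scale the difference was 2.15 (SE 0.27, a 4.44-fold difference) in APB5 against IgG and −1.80 (SE 0.26) in APB5+Mino against APB5. APB5 replicate 3 had 1.69 times the mean of the other 2 APB5 libraries, which alone had 3.59 times the IgG mean. Without it the log2 fold changes were 1.85 and −1.49.

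Fgf2os was scarce outside APB5 and differed by a larger factor than Fgf2. It had 16, 14 and 38 counts in IgG, 46, 54 and 21 in IgG+Mino, 309, 380 and 813 in APB5 and 12, 24 and 16 in APB5+Mino. The lowest APB5 library thus held 309 counts and the highest of the other 9 held 54. In CPM this was 0.394 ± 0.228 in IgG, 0.724 ± 0.3003 in IgG+Mino, 8.30 ± 3.59 in APB5 and 0.328 ± 0.129 in APB5+Mino. On the log2 scale it was 4.40 (SE 0.51, 21.1-fold) in APB5 against IgG and −4.66 (SE 0.45) in APB5+Mino against APB5. These were 3.98 and −4.26 without APB5 replicate 3. Fgf2os was not a fixed share of Fgf2. Per 100 Fgf2 counts there were 0.819 to 3.02 Fgf2os counts in IgG, 1.38 to 3.22 in IgG+Mino, 6.62 to 7.96 in APB5 and 0.780 to 1.24 in APB5+Mino. The share in APB5 lay above that of all 9 other libraries, and the share in APB5+Mino lay below that of all IgG+Mino libraries.

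**Figure D1:**
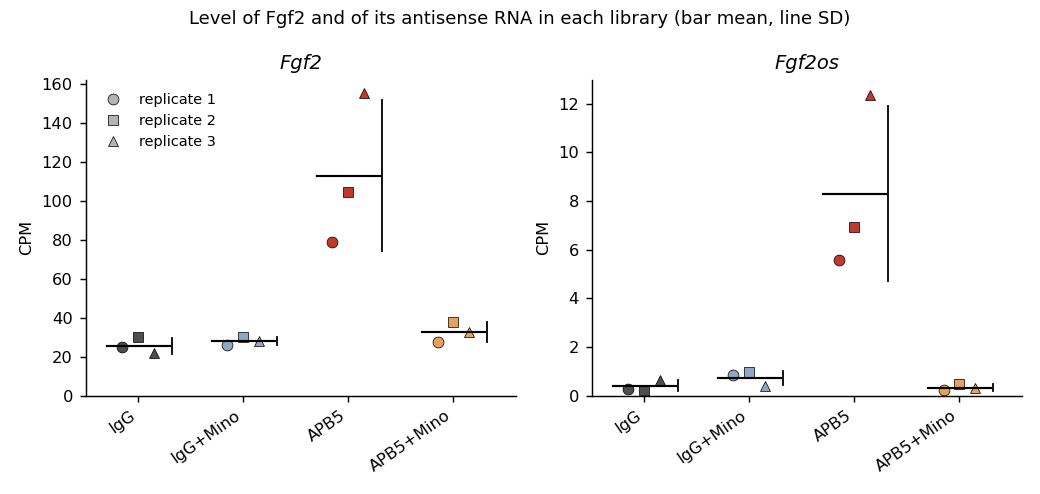
Level of Fgf2 (left) and Fgf2os (right) in CPM (vertical axis) in each of the 12 libraries, by group. Symbols are replicates, horizontal bars means and vertical lines SD (n = 3). The 3 APB5 libraries, at 78.8 to 155 CPM for Fgf2 and 5.58 to 12.4 CPM for Fgf2os, lie above all others.

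The authors' transcript table held 2 Fgf2 transcripts and gave 1 of them 99.6% of the Fgf2 total in IgG and 99.5% in APB5 (the authors' group means of normalized counts, with no replicate values). The same transcript thus made up nearly the whole level in both groups. For Spry1 the table held 4 transcripts, and the most abundant had 54.4% of the Spry1 total in IgG and 42.3% in APB5.

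Neighboring genes were read to see whether the difference spread along the chromosome. Of the 47 annotated genes within 500000 bases of Fgf2, 24 were in the count table, 3 of them Fgf2, Fgf2os and Spry1. Of the 21 others, 10 were tested in APB5 against IgG. By the quasi-likelihood test of edgeR, 0 of them passed an adjusted p of 0.05, but neither did any of the 20350 genes tested. At an unadjusted p under 0.05 there were 0 of the 10, beside 7.23% of all genes. With 10 genes, these counts cannot show that the difference did not spread. The log2 fold changes of the 10 ran from −0.55 (Bbs12, a chaperonin-like protein of the primary cilium) to 0.30 (Nudt6). Nudt6, a nudix hydrolase gene on the other strand, shares 640 exon bases with Fgf2. Its mean was 4.39 ± 0.804 CPM in IgG and 5.40 ± 0.780 CPM in APB5. Here too reads of both strands may not have been separated. Afg2a, an ATPase gene listed under its older symbol Spata5 and starting 71.5 kb from the start of Fgf2, had a log2 fold change of −0.05. Between APB5+Mino and APB5, 4 of the 10 had an unadjusted p under 0.05, close to the share of 35.9% over all genes tested, and 0 were called. The furthest from 0 among these 4 were 0.84 for Bltp1 (BH-adjusted p = 0.0801, edgeR quasi-likelihood) and −0.78 for the centrin gene Cetn4 (BH-adjusted p = 0.0502, edgeR quasi-likelihood), where BH stands for the Benjamini-Hochberg method over all genes tested.

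**Figure D2:**
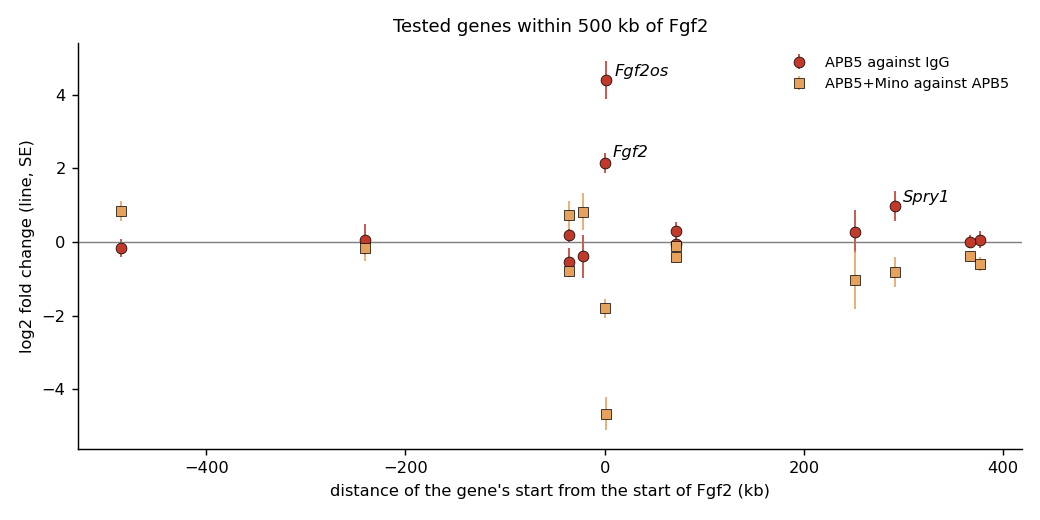
Log2 fold change (vertical axis, lines SE) of the tested genes within 500000 bases of Fgf2 against the distance of their start from that of Fgf2 in kb. Circles are APB5 against IgG and squares APB5+Mino against APB5. Fgf2 and Fgf2os, at 2.15 and 4.40, stand apart from their neighbors, of which 10 lie between −0.55 and 0.30 in APB5 against IgG.

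The level of each feedback gene was first set beside that of Fgf2 on a scale per transcript length (RPKM, from the union of annotated exons). In IgG retinas, Fgf2 was the sixth of the 10 genes at 3.74 ± 0.609 RPKM. Spry2 was highest at 17.5 ± 2.12 RPKM and overlapped Dusp4 at 13.2 ± 2.99. Spred1 (9.10 ± 1.45), Dusp6 (6.63 ± 1.88) and Etv5 (5.17 ± 0.663) followed, with Dusp6 overlapping both of the others and Etv5 above Fgf2 in each library. Below Fgf2 came Etv4 (2.88 ± 1.04), whose range overlapped that of Fgf2, and Spry1 (2.84 ± 0.291), which overlapped Etv4, then Spry4 (1.42 ± 0.188) and Fgf2os (0.274 ± 0.158), which did not overlap their neighbors. In APB5 retinas Fgf2 was the first of the 10 by mean at 16.5 ± 5.71 RPKM, although its range overlapped that of Dusp4 at 15.3 ± 1.74, and 8 of the 9 neighbors in the order overlapped. In APB5+Mino retinas Fgf2 was again the sixth, at 4.77 ± 0.743 RPKM, and its range overlapped that of Dusp6.

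Set against this, none of the 8 feedback genes was called in APB5 against IgG retinas. Here and below, a call by edgeR's quasi-likelihood fit needed a BH-adjusted p no higher than 0.05 together with a change of 1 or more on the log2 scale, up or down. By this rule 0 of the 10 genes and 0% of all 20350 genes tested were called, so the rule had no calls to give in this comparison. At an unadjusted p under 0.05 there were 4 of the 10, all higher, against 7.23% of all genes. Fgf2 and Fgf2os were chosen on this contrast and count for nothing here, which leaves 2 of 8, Spry1 and Etv5. DESeq2 called 2 of the 10, which were Fgf2 and Fgf2os, and 113 genes in all. The same 2 genes were called by edgeR without APB5 replicate 3, when 0.101% of all genes were called. The median log2 fold change of the 8 feedback genes was 0.43, with 7 above 0 and 1 below, beside −0.0025 over all genes tested. Without APB5 replicate 3, the median of all 10 genes went from 0.50 to 0.30, and Dusp6 joined Spry2 below 0.

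Spry1 had the largest fold change of the feedback genes, and APB5 replicate 3 carried most of it. Spry1 (37693897 to 37698755) encodes a Sprouty protein, an intracellular inhibitor of receptor tyrosine kinase signaling, and its gene starts 291.4 kb from that of Fgf2 on the same chromosome. The other feedback genes lie elsewhere, on chromosomes 14 (Spry2), 18 (Spry4), 2 (Spred1), 8 (Dusp4), 10 (Dusp6), 11 (Etv4) and 16 (Etv5). Spry1 had 12.2, 13.5 and 14.9 CPM in IgG and 19.8, 14.4 and 45.4 CPM in APB5. APB5 replicate 2 lay within the IgG range and replicate 3 was the highest of all 12 libraries. Its log2 fold change was 0.98 (SE 0.40, BH-adjusted p = 0.664, edgeR quasi-likelihood), and 0.34 without APB5 replicate 3. With all 12 libraries in the fit and Xist as a covariate it was 1.31 and Spry1 was called (BH-adjusted p = 0.0235, edgeR quasi-likelihood) in a fit that called 5.35% of all genes tested. That is the lowest adjusted p over 14 alternatives for Spry1, in which its log2 fold change ran from 0.14 to 1.31. The value of 0.14 came from the same fit without APB5 replicate 3.

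The fold changes of the other Sprouty genes lay on either side of 0, and neither gene passed the test. Spry2, the most abundant of them, had 86.1, 81.5 and 102 CPM in IgG and 84.6, 67.8 and 72.2 CPM in APB5. Its log2 fold change was −0.26 (95% interval −0.59 to 0.08), the only one of the 10 below 0. Spry4 had 9.80, 10.4 and 7.98 CPM in IgG and 11.9, 9.82 and 18.01 CPM in APB5, again with replicate 3 highest, and its log2 fold change was 0.50 (95% interval −0.09 to 1.10) or 0.22 without that library. Spred1, whose protein holds neurofibromin at the membrane and so restrains RAS, had 77.0, 77.4 and 57.7 CPM in IgG and 87.7, 84.8 and 99.8 CPM in APB5. Its groups did not overlap, but its change of 0.37 on the log2 scale (SE 0.16) did not pass (BH-adjusted p = 0.664, edgeR quasi-likelihood). Of the 8 feedback genes, 2 (Spred1 and Etv5) had all APB5 libraries above all IgG libraries, as did 7.84% of all genes tested. For each, the exact permutation test gave p = 0.1, the smallest possible with 3 against 3 libraries.

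Neither phosphatase gene differed beyond the spread between libraries. Dusp6 encodes a cytoplasmic phosphatase specific for ERK and is often the most direct readout of FGF signaling. It had 16.6, 21.6 and 29.3 CPM in IgG and 26.5, 17.8 and 50.5 CPM in APB5. Replicate 3 was again the highest of the 12 libraries, and replicates 1 and 2 lay within the IgG range. The log2 fold change was 0.50 (95% interval −0.41 to 1.41), and −0.02 without replicate 3. Dusp4, a nuclear phosphatase of ERK, had 36.9, 47.2 and 30.1 CPM in IgG and 47.8, 45.7 and 38.2 CPM in APB5, a log2 fold change of 0.21 (95% interval −0.23 to 0.65). Differences up to the upper ends of these intervals could not be told from 0 with 3 libraries a group.

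Of the 2 ETS factor genes, Etv5 was separated between the groups and Etv4 was not. Etv5 had 36.1, 44.6 and 35.8 CPM in IgG, and 54.2, 49.6 and 61.8 CPM in APB5. The groups did not overlap, and unlike Spry1 and Dusp6 the difference did not rest on replicate 3, which had 1.19 times the mean of the other APB5 libraries. Its change was 0.51 on the log2 scale (SE 0.15, BH-adjusted p = 0.664, edgeR quasi-likelihood), and 0.43 without replicate 3. In the fit of all 12 libraries with Xist as a covariate Etv5 had a BH-adjusted p of 0.0338 (edgeR quasi-likelihood, the lowest of 14 alternatives) but stayed under the fold threshold at 0.57. Over those alternatives its log2 fold change ran from 0.34 to 0.63. Without replicate 3, the APB5 libraries were low in Xist and the IgG libraries high, so APB5 and sex cannot be told apart. Etv5 had 47.2 to 48.5 CPM in the IgG+Mino libraries, which were above all IgG libraries and differ from them in both Xist and minocycline. APB5 replicate 3, high in Xist, had the highest Etv5 level of the 12 libraries, at 61.8 CPM. Etv4 had 7.10, 7.39 and 12.9 CPM in IgG and 11.5, 9.60 and 6.47 CPM in APB5. Its log2 fold change was 0.01 (95% interval −0.71 to 0.73), and replicate 3, highest for Spry1, Spry4, Dusp6 and Etv5, was the lowest of the 12 libraries for Etv4.

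**Figure D3:**
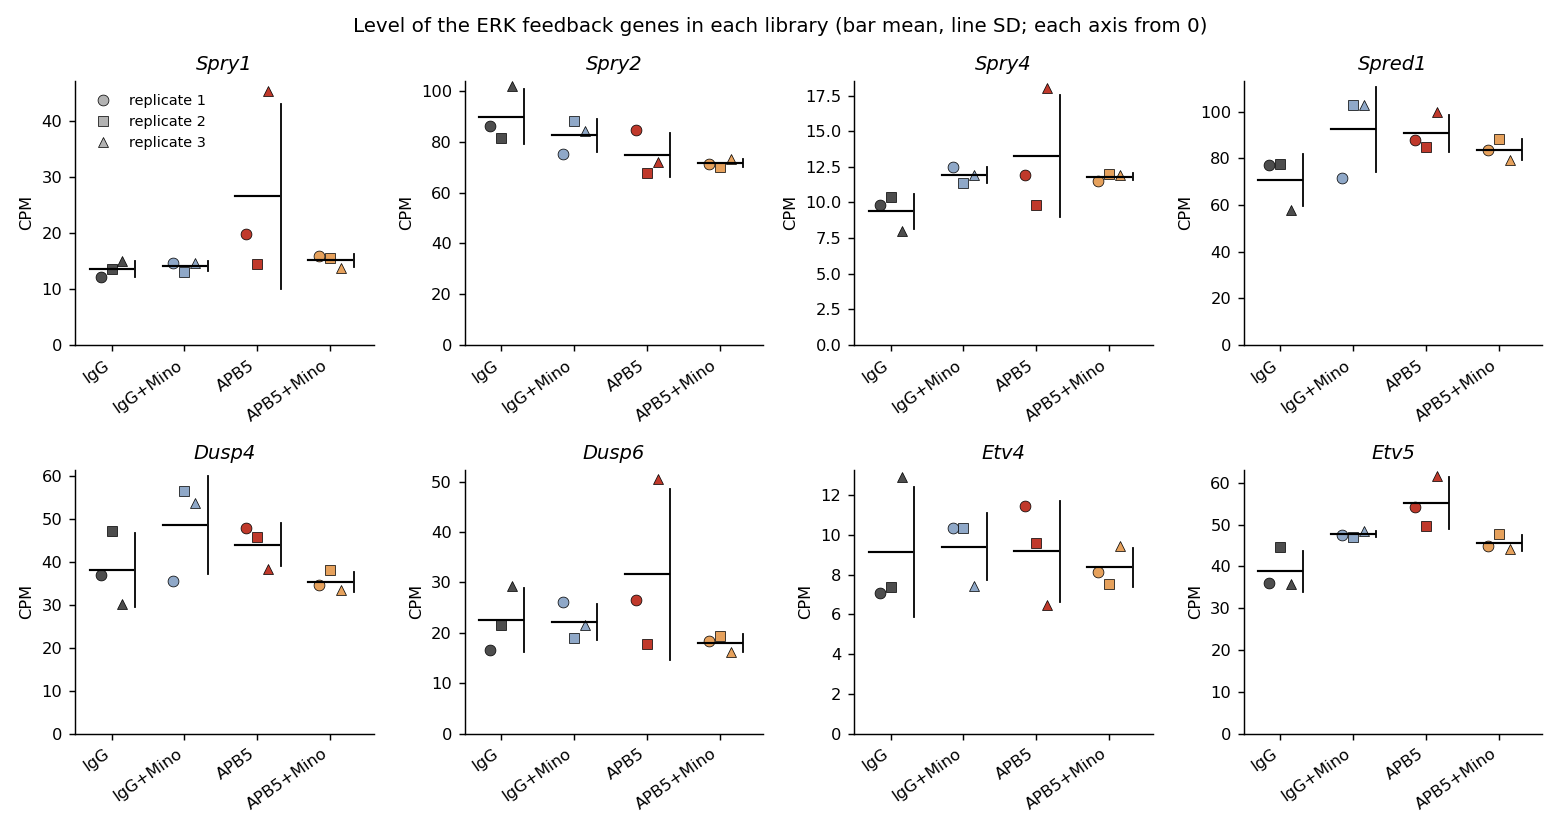
Level of the 8 feedback genes in CPM (vertical axes, each from 0) in each library, by group. Symbols are replicates, horizontal bars means and vertical lines SD (n = 3). APB5 replicate 3 (triangle) lies far above the other APB5 libraries for Spry1 (45.4 CPM) and Dusp6 (50.5 CPM), whereas the 3 APB5 libraries of Etv5 lie together at 49.6 to 61.8 CPM.

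Markers of other cells also set APB5 replicate 3 apart. The 10 Müller glia markers, which include the genes of glutamine synthetase and of the retinaldehyde-binding protein, summed to 11552 CPM in that library and to 4336 to 6486 CPM in the other 11. Of these 10 genes, 7 had a log2 fold change above 0 in APB5 against IgG. The 10 gliosis markers all had one above 0, with a median of 3.18, or 1.16 without replicate 3. None of either list was called, but neither was any other gene in this comparison. At an unadjusted p under 0.05 there were 10 of the 10 gliosis and 2 of the 10 Müller glia markers, all higher, beside 7.23% of all genes. Without replicate 3, the gliosis genes Gfap and Lcn2 were called, in a fit that called 0.101% of all genes. The 12 microglia and macrophage markers summed to 489 CPM in replicate 3 and to 30.3 to 97.3 CPM elsewhere. Its 9 pericyte markers, of which Vtn was the most abundant, summed to 425 CPM against 586 to 1126 CPM. The sum does not stand for each gene of that list, since Pdgfrb, one of them, had 38.7 CPM in replicate 3. Of the 9, 6 had a log2 fold change above 0 in APB5 against IgG and 3 below. Their median was 0.45, or 0.03 without replicate 3. The 9 pigment epithelium markers summed to 813 CPM in replicate 3 against 48.3 to 167 CPM. No marker of these lists was at 0 in all libraries. The part of these cells in the levels of Fgf2, Spry1, Spry4 and Dusp6 was not tested. In APB5 replicates 1 and 2, Fgf2, Fgf2os and Etv5 lay above all IgG libraries, and so did the summed gliosis markers, at 440.1 and 430.2 CPM against 187 to 233 CPM.

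With minocycline given to APB5 mice, the feedback genes had log2 fold changes nearer to 0 than those of Fgf2 and Fgf2os, and none of them was called. In APB5+Mino against APB5, 2 of the 10 genes were called, both lower, beside 1.66% of the 20281 genes tested. They were Fgf2 and Fgf2os, which were chosen on these values. The main fit did not pair libraries by number. With the replicate number as a block, 0 of the 10 were called, and 0 of all genes tested. Of the 10, 0 were called when APB5 replicate 1 or 1 of the APB5+Mino libraries was dropped. Over all genes, the fit without APB5 replicate 1 called 1 of 20887. The fits without an APB5+Mino library each called 0, so these fits had almost no calls to give. In the main fit there were 4 of the 10 at an unadjusted p under 0.05, all lower, of which 2 are feedback genes (Dusp4 and Etv5). That share is below the 35.9% of all genes tested with such a p. Likewise the groups did not overlap for 2 of the 8 feedback genes, again Dusp4 and Etv5 and both lower, beside 23.3% of all genes.

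All 8 feedback genes had a log2 fold change below 0 in this comparison, from −0.82 to −0.07, with a median of −0.22 beside −0.02 over all genes. Without APB5 replicate 3, Spry4 was above 0, at 0.11. Spry1 had 15.9, 15.6 and 13.8 CPM in the 3 APB5+Mino libraries, which gave −0.82 on the log2 scale (95% interval −1.77 to 0.13), or −0.18 without APB5 replicate 3. Dusp6 had 18.3, 19.4 and 16.1 CPM, also a log2 fold change of −0.82 (95% interval −1.66 to 0.02), or −0.31 without that library. Without APB5 replicate 2 instead, it was −1.10 and Dusp6 was called (BH-adjusted p = 0.0414, edgeR quasi-likelihood), in a fit that called 1797 of 20832 genes tested. That was the lowest of 14 alternatives in which the adjusted p reached 0.613. Etv5 had 45.0, 47.8 and 44.2 CPM, all below the lowest APB5 library. Its log2 fold change was −0.28 (SE 0.11, BH-adjusted p = 0.123, edgeR quasi-likelihood). Dusp4 had 34.6, 37.98 and 33.5 CPM, a log2 fold change of −0.31 (SE 0.12, BH-adjusted p = 0.108, edgeR quasi-likelihood). Spry2, Spry4, Spred1 and Etv4 had log2 fold changes between −0.17 and −0.07, and all 4 overlapped between the groups.

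**Figure D4:**
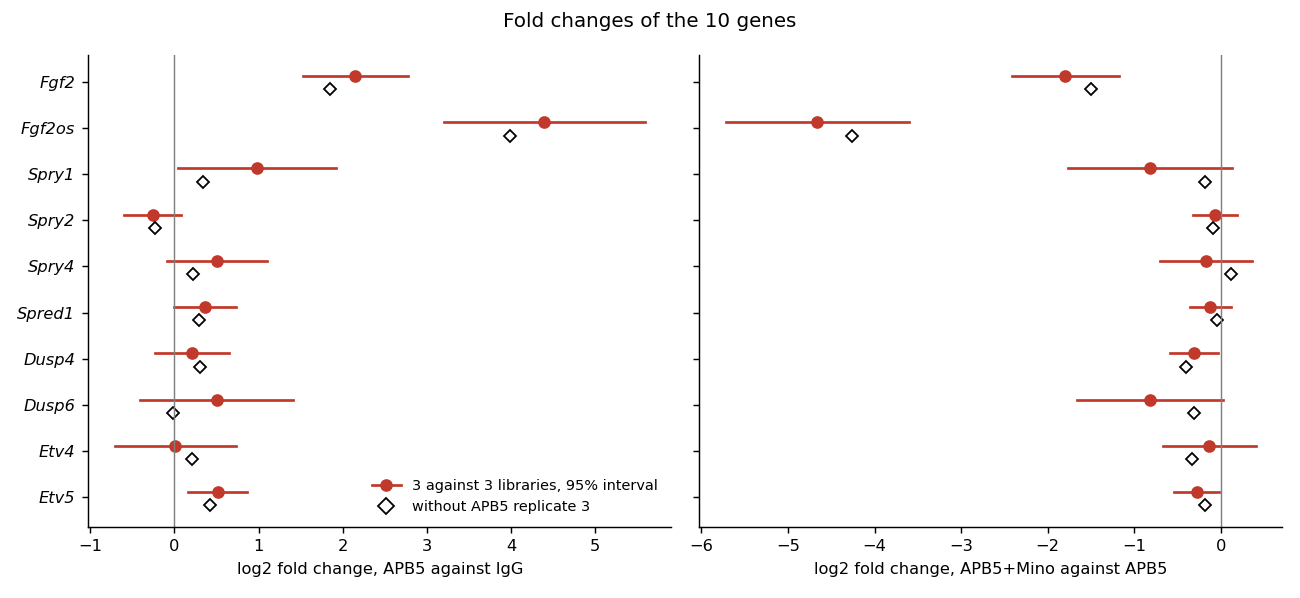
Log2 fold change (horizontal axes) of the 10 genes in APB5 against IgG (left) and APB5+Mino against APB5 (right). Circles with lines are the fit of 3 against 3 libraries with its 95% interval, and diamonds the value without APB5 replicate 3. Fgf2 and Fgf2os keep values far from 0 in both, whereas Dusp6 goes from 0.50 to −0.02 on the left.

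With minocycline alone, none of the 10 genes was called. In IgG+Mino against IgG, 0 of the 10 genes were called by edgeR's quasi-likelihood test, beside 0.0298% of all genes. DESeq2 also called 0 of the 10, beside 24 of 21586 genes. At an unadjusted p under 0.05 there were 2 of the 10 (Spry4 and Etv5), beside 8.37% of all genes. For both, all IgG+Mino libraries lay above all IgG libraries, as for 6.88% of all genes. Etv5 had 47.6, 47.2 and 48.5 CPM in IgG+Mino, a log2 fold change of 0.31 (SE 0.13), and Spry4 had 12.5, 11.4 and 11.9 CPM, one of 0.36 (SE 0.15). Neither passed (BH-adjusted p = 0.585 for both, edgeR quasi-likelihood). Fgf2 had a log2 fold change of 0.14 (95% interval −0.20 to 0.48) and Fgf2os one of 0.88 (95% interval −0.20 to 1.96). All IgG libraries were high in Xist and all IgG+Mino libraries low, so minocycline and sex cannot be told apart here.

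Between the 2 minocycline groups Fgf2 did not differ beyond its spread, and Fgf2os had a lower mean in APB5+Mino that did not pass the test. In APB5+Mino against IgG+Mino, 0 of the 10 genes were called by edgeR's quasi-likelihood test (1.24% of all genes) and 0 by DESeq2 (262 of 17224 genes). At an unadjusted p under 0.05 there were 3 of the 10, all lower (Fgf2os, Spry2 and Dusp4), beside 29.3% of all genes. Spry2, the 1 gene of the 10 whose groups did not overlap (17.2% of all genes were lower in that way), had 71.4, 70.1 and 73.2 CPM against 75.3, 88.3 and 84.2 CPM. The log2 fold change of Fgf2 was 0.22 (95% interval −0.06 to 0.50) and that of Fgf2os −1.15 (95% interval −2.13 to −0.17, BH-adjusted p = 0.118, edgeR quasi-likelihood). Dusp4 had a log2 fold change of −0.46 (SE 0.16, BH-adjusted p = 0.103, edgeR quasi-likelihood).

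The difference between the effect of minocycline in APB5 and in IgG retinas was read from the interaction term. Its IgG part sets libraries high in Xist against IgG+Mino libraries low in it, so there minocycline and sex cannot be told apart. By the interaction term 1 of the 10 genes was called, Fgf2os, beside 0.0141% of the 21228 genes tested (3 genes). Fgf2os is among the genes chosen with these levels known, and its value is given as a description: −5.53 (SE 0.69) on the log2 scale, beside −1.92 (SE 0.31) for Fgf2. At an unadjusted p under 0.05 there were 5 of the 10, all negative, beside 17.1% of all genes. Of these, 3 are feedback genes (Spred1, Dusp4 and Etv5). The interaction of Etv5 was −0.57 (SE 0.16, BH-adjusted p = 0.164, edgeR quasi-likelihood), from 0.31 with minocycline in IgG retinas and −0.28 with it in APB5 retinas. Spry1 and Dusp6 had interactions of −0.87 and −0.79 with 95% intervals that held 0, from −1.84 to 0.09 and from −1.76 to 0.17.

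Over the 12 libraries, the pattern of Fgf2 was compared with that of 21227 other genes by Pearson's r of log2 CPM. The 5 genes most like Fgf2 were 9330159M07Rik (r = 0.974), Slc6a2, the noradrenaline transporter gene (0.963), Lad1 (0.962), Vmn2r3 (0.956) and Anxa10 (0.955). Some of these were scarce and uneven in APB5, with 1.06 ± 1.32 CPM for Vmn2r3 and 2.1999 ± 3.18 CPM for Anxa10, and Anxa10 was at 0 in the other groups. Fgf2os had rank 21 at 0.912. Of the feedback genes, Etv5 was the nearest at 0.788, with 2.05% of genes closer to Fgf2, followed by Spry1 at 0.752. Spry4 had 0.558, Dusp6 0.504, Spred1 0.445 and Dusp4 0.209, whereas Etv4 and Spry2 had −0.178 and −0.477. Without APB5 replicate 3, r fell to 0.649 for Etv5, 0.472 for Spry1, 0.108 for Spry4, 0.307 for Spred1 and −0.085 for Dusp6, whereas it went up to 0.374 for Dusp4, 0.192 for Etv4 and −0.437 for Spry2. These correlations describe 12 points in which the 3 APB5 libraries stand apart and share the same treatment.

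The wider pathway was described from 4 lists of genes. In APB5 against IgG the rule called 0% of all genes, so that 0 called there says nothing about a list. Of 21 other FGF ligand genes, 15 were tested in APB5 against IgG, with 10 above 0, 0 called and a median of 0.12. The smallest p was that of Fgf9, a ligand made by neurons (−0.24, BH-adjusted p = 0.670, edgeR quasi-likelihood). Of 14 receptor and co-receptor genes, 13 were tested, with 10 above 0, 0 called and a median of 0.66, or 0.15 without APB5 replicate 3. Fgfr1, a main receptor of FGF2, had 28.6, 38.2 and 33.2 CPM in IgG and 42.3, 40.9 and 103 CPM in APB5. Sdc4, a heparan sulfate co-receptor, had 58.5, 60.5 and 69.6 CPM in IgG and 82.7, 69.0 and 238 CPM in APB5. In both, replicate 3 was again far above the other APB5 libraries. With minocycline (APB5+Mino against APB5), 11 of the 15 ligand genes and 10 of the 13 receptor and co-receptor genes were below 0, with medians of −0.19 and −0.52. In this comparison 0 of either list were called by edgeR, beside 1.66% of all genes. There were 3 ligand genes (Fgf15, Fgf14 and Fgf5), all lower, and 8 receptor and co-receptor genes, 7 of them lower, with an unadjusted p under 0.05, beside 35.9% of all genes tested. Without APB5 replicate 3 the medians were −0.04 and −0.17, and 3 genes were called lower by edgeR, in a fit that called 4.64% of all genes. These were Fgf15 at −2.26 (SE 0.64), the receptor gene Fgfr3 at −1.15 (SE 0.28) and the proteoglycan gene Sdc1 at −1.07 (SE 0.24) on the log2 scale.

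None of the genes of the RAS, RAF, MEK and ERK cascade itself was called. All 24 were tested, with 0 called in APB5 against IgG, as for all genes tested, and a median of 0.05. Between APB5+Mino and APB5 again 0 of the 24 were called, beside 1.66% of all genes, with a median of 0.10. At an unadjusted p under 0.05 there were 6 higher and 2 lower in that comparison, beside 35.9% of all genes. Rps6ka3, a kinase activated by ERK, had a log2 fold change of 0.59 and Hras one of −0.61 there (BH-adjusted p = 0.0461 and 0.0497, edgeR quasi-likelihood), both under the fold threshold.

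Among 19 other ERK-induced genes, the immediate early genes Egr1, Fos and Dusp1 were lowest in APB5+Mino retinas. Of these, 18 were tested in APB5 against IgG, with 15 above 0, 0 called and a median of 0.73, or 0.13 without APB5 replicate 3. Spred2, a relative of Spred1, had 15.6, 19.997 and 17.8 CPM in IgG and 26.7, 24.1 and 30.4 CPM in APB5 (log2 fold change 0.61, BH-adjusted p = 0.664, edgeR quasi-likelihood). It had 24.7 to 32.7 CPM in IgG+Mino as well. In APB5+Mino against APB5, 13 of the 18 were below 0 and 2 were called, Egr1 and Dusp1, beside 1.66% of all genes. The median was −0.83, or −0.24 without APB5 replicate 3. Against IgG+Mino, 4 of the 18 were called in APB5+Mino, beside 1.24% of all genes, with Egr1, Fos and Dusp1 lower and Fosl1 higher.

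Egr1, an early transcription factor induced by ERK through SRF, had 26.3, 28.8 and 36.2 CPM in APB5+Mino. It had 267, 139 and 1089 CPM in APB5, 88.7, 469 and 151 CPM in IgG+Mino and 91.1, 99.8 and 712 CPM in IgG. The APB5+Mino libraries lay below all 9 others, and IgG replicate 3 was high as well, so that IgG and APB5 overlapped. Summed markers of microglia and macrophages and of Müller glia were lowest in the same 3 libraries, whereas those of the other marker lists were not. The gliosis markers, for example, summed to 186 to 228 CPM in APB5+Mino and to 187 to 233 CPM in IgG. The 12 microglia and macrophage markers summed to 30.3 to 34.3 CPM in APB5+Mino and to at least 50.1 CPM in the other 9 libraries, and the 10 Müller glia markers to 4336 to 4583 CPM against at least 4996 CPM. All 12 microglia and macrophage markers were lower in APB5+Mino than in APB5 at an unadjusted p under 0.05, with a median of −3.39, or −1.58 without APB5 replicate 3. Of all genes, 35.9% had such a p in either direction. Against IgG+Mino, 10 of the 12 were lower at such a p, beside 29.3% of all genes in either direction, with a median of −0.77. The part of these cells in the levels of Egr1, Fos and Dusp1 was not tested. The log2 fold change of Egr1 was −4.04 (SE 0.78, BH-adjusted p = 0.0471) against APB5 and −2.96 (SE 0.53, BH-adjusted p = 0.0196) against IgG+Mino by edgeR's quasi-likelihood test. Dusp1, a phosphatase of several MAP kinases that responds to stress and glucocorticoids, had 23.3 to 23.9 CPM in APB5+Mino and 34.8 to 114 CPM in the other 9 libraries. Its log2 fold changes were −1.71 (SE 0.25, BH-adjusted p = 0.0433) and −1.02 (SE 0.16, BH-adjusted p = 0.0163) by edgeR's quasi-likelihood test. Egr1 and Dusp1 lost the call against APB5 with the replicate number as a block (BH-adjusted p = 0.0641 for both, edgeR quasi-likelihood), at log2 fold changes of −3.50 and −1.64. That fit called 0 of all genes tested. Without APB5 replicate 3 both stayed called, at −2.74 and −1.36, beside 4.64% of all genes. They also lost the call when APB5 replicate 1 or 1 APB5+Mino library was left out, with an adjusted p of up to 0.214 (edgeR quasi-likelihood). Over all genes, those fits called 1 without APB5 replicate 1 and 0 without each APB5+Mino library. Against IgG+Mino, Dusp1 fell short of the fold threshold with the block, at −0.99, and Egr1, Fos, Dusp1 and Fosl1 each stayed called in at most 2 of the 6 fits that left out 1 library. Over all genes, those 6 fits called from 0 to 472.

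Fosl1 was the 1 gene of this list called higher in APB5+Mino than in IgG+Mino. It encodes an AP-1 subunit that accumulates with sustained ERK activity, and had 0.175, 0.404 and 0.397 CPM in IgG and 3.16, 0.986 and 11.9 CPM in APB5. Each APB5 library lay above each IgG library. In APB5+Mino it had 2.09, 3.10 and 1.21 CPM, a level that overlapped APB5 and stayed above the 0.655, 0.740 and 0.913 CPM of IgG+Mino. The log2 fold change of Fosl1 against IgG+Mino was 1.46 (SE 0.35, BH-adjusted p = 0.0394, edgeR quasi-likelihood).

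**Figure D5:**
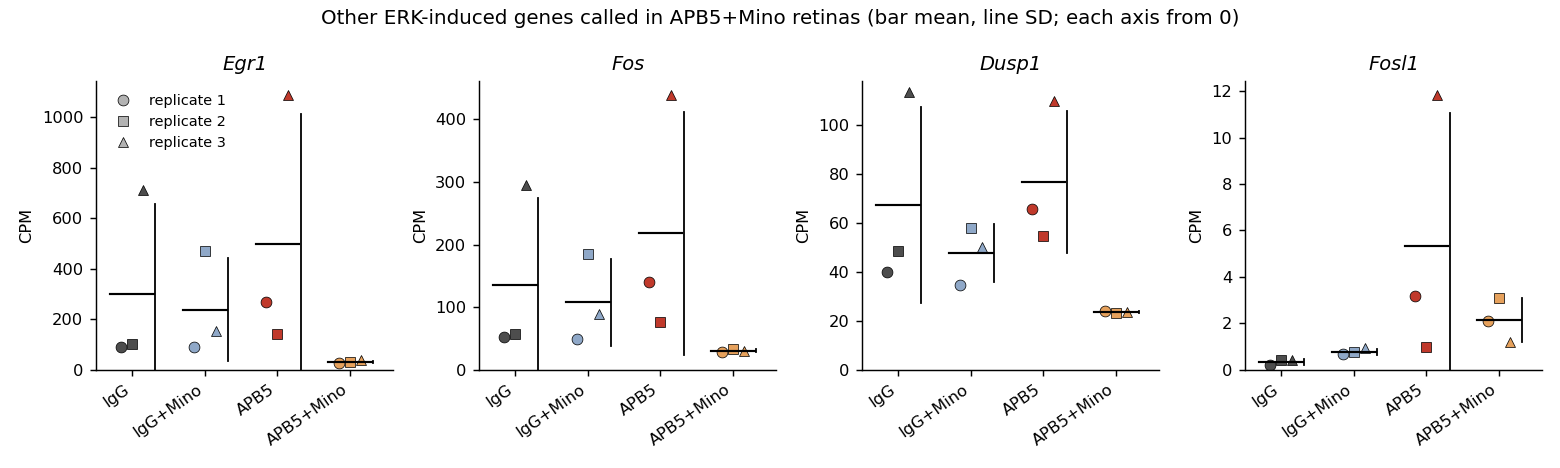
Level of Egr1, Fos, Dusp1 and Fosl1 in CPM (vertical axes, each from 0) in each library, by group. Symbols are replicates, horizontal bars means and vertical lines SD (n = 3), stopped at 0. The APB5+Mino libraries lie lowest for Egr1 (26.3 to 36.2 CPM), Fos and Dusp1, but not for Fosl1.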

How the data were processed

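Stranded poly-A libraries were sequenced and aligned with the DRAGEN RNA pipeline to a custom mouse genome by the authors, and the labels name bcl2fastq 2.20 and the mm39 build. The DRAGEN version and the use of strand in counting are not given in the sources used here. The deposited gene table holds raw counts per gene. It has 3 repeated columns, which are identical and were not used, and 0 columns of other samples. Signal values in the deposited transcript tables are the authors' mean normalized counts per group, and were used for transcript shares only. Fold changes and p-values in the authors' tables were not used.

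Counts were scaled by TMM and filtered by filterByExpr in edgeR 4.0.16 (R 4.3.3, limma 3.58.1). Pairs of groups were tested by glmQLFTest (robust = FALSE) and adjusted by Benjamini-Hochberg, on the 2 groups compared, and the interaction on all 12 libraries. Tests were two-sided. Calls needed an adjusted p no higher than 0.05 and a change of 1 or more on the log2 scale. CPM and RPKM were computed from the 12 libraries, with a prior count of 2 for log2 CPM. The scripts were tested on simulated counts. Alternatives were RLE scaling, library size only, DESeq2 1.42.0, no count filter, all 12 libraries, the replicate number as a block, Xist as a covariate, other call rules, another prior count and each library left out. The fit without APB5 replicate 3 and with Xist as a covariate, and the alternatives for the called genes of the pathway lists, were added after seeing the data.

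Total counts were 52740545 to 59411044 per library, so a gene at 1 CPM rests on over 50 counts. Replicates differed by more than sampling noise (chi-square per gene 13.6 to 377), and none was counted once. The same replicate numbers occur in each group. For APB5+Mino against APB5, same-numbered libraries had deviations from their group means that correlated at 0.119 to 0.169 (3 pairs), and other pairs at −0.133 to 0.0113. The numbers may thus mark pairs, but deviations within a group sum to 0, and same-numbered libraries there were also alike in Xist. The main fit did not pair libraries. The block was an alternative, in which 0 of all 20281 genes tested were called for APB5+Mino against APB5. Elsewhere some same-numbered pair fell under 0.1.

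The 10 genes and all lists were chosen with earlier results of these data known. Other genes were named by rule: those within 500000 bases of Fgf2, the called genes and up to 3 with the smallest p of each pathway list, and the 5 most like Fgf2. Coordinates and windows are from GRCm39 with GENCODE annotation. RefSeq's table, of the older build GRCm38, was used only to name transcripts.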

Additional observations from a re-analysis of the deposited data

Results flagged for a closer look

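The effect of minocycline on Fgf2os differed between APB5 and IgG retinas by −5.53 on the log2 scale, and the interaction term called it. The gene was chosen with these levels known, so the value is a description and carries no test. All IgG libraries were high in Xist and all IgG+Mino libraries low, so in IgG retinas the effect of minocycline and that of sex cannot be told apart. Blocking by replicate number gave −5.59 for Fgf2os. The call was lost in 5 of the 12 fits that left out 1 library. These had few or no calls to give, beside 3 over all genes in the main fit. They called 0 genes without IgG replicate 1, APB5+Mino replicate 1 or APB5+Mino replicate 3. They called 1 without IgG replicate 2 and 2 without IgG+Mino replicate 2. No group had enough libraries for a check of single outlying samples.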

How the results depend on the processing

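Of 750 recomputed fold changes of the 10 genes, 680 kept their direction and their side of the threshold, and 0 called values changed sign. The number of the 10 genes called moved more. In APB5 against IgG it went from 0 to 2 with DESeq2, with no count filter or with all 12 libraries, to 3 with Xist as a covariate and to 4 at an unadjusted p. Over all genes, these fits called 113 of 21188, 5 of 33260, 7 of 21228 and 1136 of 21228, in that order, and 7.23% had such a p. Leaving out 1 library gave 0 to 2 of the 10 in APB5 against IgG, with 2 only without APB5 replicate 3. That fit called 21 of 20736 genes, and each of the others 0. With minocycline in APB5 retinas (APB5+Mino against APB5) the number of the 10 called went from 2 to 0 with library size only or with the replicate block, and to 4 at an unadjusted p. Of all 20281 genes, library size only called 5 and the block 0, and 35.9% had such a p. Leaving out 1 library gave 0 to 3 of the 10, with 0 without APB5 replicate 1 or any APB5+Mino library. Those fits called 1 gene in all without APB5 replicate 1 and 0 without each APB5+Mino library. At an unadjusted p the number of the 10 was 2 in IgG+Mino against IgG (8.37% of all genes) and 3 in APB5+Mino against IgG+Mino (29.3%), from 0 in both. For the interaction it went from 1 to 2 with DESeq2, no count filter or Xist, to 5 at an unadjusted p, and to 0 with Xist and without APB5 replicate 3. Over all genes, the first 3 fits called 386 of 18321, 34 of 35088 and 955 of 21228, in that order. The last called 0 of 21571, and 17.1% of all genes had such a p. Leaving out 1 library gave 0 to 2 of the 10, with 0 without IgG replicate 1 or 2, IgG+Mino replicate 2, or APB5+Mino replicate 1 or 3. Those fits called 0, 1, 2, 0 and 0 genes in all, in that order. The replicate block changed the calls of Fgf2 (−1.75) and Fgf2os (−4.63) in APB5+Mino against APB5 and no other call among the 10 genes.

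Signs changed only for feedback genes, on the log2 scale. In APB5 against IgG, Etv4 had −0.14 with Xist and −0.18 to 0.33 with 1 library left out, and Dusp6 −0.018 to 0.78, or −0.26 with Xist and without APB5 replicate 3. For APB5+Mino against APB5, leaving out 1 library gave −0.13 to 0.030 for Spry2, −0.33 to 0.057 for Etv4 and −0.35 to 0.11 for Spry4, which had 0.10 with Xist and without APB5 replicate 3. In IgG+Mino against IgG, library size only gave −0.010 for Spry1 and −0.020 for Etv4, the block 0.011 for Dusp6, and Xist 0.52 for Dusp6 and −0.15 for Etv4. Leaving out 1 library gave −0.0023 to 0.14 for Spry1, −0.19 to 0.22 for Dusp6 and −0.10 to 0.38 for Etv4, and Spry1 had −0.13 with Xist and without APB5 replicate 3. For APB5+Mino against IgG+Mino, Spry4 had 0.010 with library size only and −0.056 to 0.016 with 1 library left out, and Spry1 −0.081 with Xist. For the interaction, Etv4 had 0.048 with Xist and −0.50 to 0.024 with 1 library left out, and Spry2 −0.036 to 0.16. With Xist and without APB5 replicate 3 the interaction was 0.0020 for Spry1, −0.042 for Spry2 and 0.018 for Dusp6. The cause of these changes was not tested. Fits that left out a library had 2 libraries in a group, and low counts limit Fgf2os (12 to 54 outside APB5) and Fosl1 (10 to 50 in IgG and IgG+Mino), and Fgf15, at a mean of 0.0828 CPM in APB5+Mino.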
